A study of Mus musculus with 9 samples.

Results

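SGK and WNK kinases, with the ubiquitin ligases, the sodium channel subunit and the hormone target that go with them, were followed through the RNAseq of murine oviductal epithelial (MOE) cells. The set holds 10 of the 23332 gene rows: *Sgk1*, *Sgk3*, *Nedd4l*, *Nedd4*, *Wnk1*, *Wnk2*, *Wnk4*, *Stk39*, *Scnn1a* and *Tsc22d3*. Members were chosen by gene symbol, with the results of all 3 comparisons already known, so the differences given for them are a description and carry no test. The FVB MOE line, a single clone of secretory cells from the oviduct of FVB mice, was kept without hormone for 48 h and was then given 0.1% DMSO, 1 nM 17-beta-estradiol (E2) or 100 nM 4-hydroxytamoxifen (4OHT) for 24 h, with 3 samples in each condition. All 3 conditions shared the starvation and the clone. DMSO was the solvent, and the study does not state its share in the E2 and 4OHT samples. 4OHT was given alone, without E2. The labels do not say whether the 3 samples of a condition came from separate cultures, so the spread between them may be technical.

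SGK kinases are relatives of AKT that are switched on by phosphorylation downstream of phosphatidylinositol 3-kinase, and SGK1 is also controlled through its transcription, which corticosteroid hormones raise in many epithelia. An active SGK kinase phosphorylates the ubiquitin ligase NEDD4L, which otherwise removes the epithelial sodium channel from the cell surface, and through this step sodium uptake is raised. WNK kinases sense chloride and osmotic stress and activate the kinases SPAK (encoded by *Stk39*) and OSR1, which phosphorylate the cation chloride cotransporters of the SLC12 family. In the oviduct, ion transport by the epithelium sets the volume and composition of the fluid around the gametes and the early embryo.

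The FPKM, fragments scaled to transcript length and to the number of mapped fragments, added up to between 522517 and 588640 per sample, and 11037 to 11175 rows reached an FPKM of 1. Of the cell type markers, *Pax8* lay at 105 to 150 FPKM and *Krt8* at 334 to 623, whereas *Epcam* (0 to 0.138) and *Cdh1* (0.211 to 0.422), which define epithelia, were near 0 in these libraries. The summed FPKM of the 8 secretory markers was 1410 to 1560 in DMSO, 2320 to 2560 in E2 and 1470 to 1670 in 4OHT, and so stood higher in the same 3 samples as *Sgk1*. Keratins made up most of this sum, with mean FPKM of 584 for *Krt18*, 483 for *Krt7*, 466 for *Krt8* and 172 for *Krt19*. *Ovgp1*, also among the 8, lay at only 1.44 to 2.61 FPKM. Of the 6 stromal and smooth muscle markers, *Acta2* was high (932 to 1720 FPKM) while *Col1a2* and *Pdgfra* were near 0, and their sum was 934 to 1420 in DMSO, 1290 to 1730 in E2 and 1250 to 1520 in 4OHT. The 5 ciliated markers with a row summed to 18.0 to 20.6 in DMSO, 13.8 to 17.7 in E2 and 18.4 to 20.5 in 4OHT. Among them, *Foxj1* lay at 8.95 to 15.9 FPKM, *Rsph1* at 2.98 to 3.86 and *Ccdc39* at 1.0 to 1.71. *Tekt1* reached at most 0.188 FPKM, and *Dynlrb2* was at 0 throughout. The 4 blood and endothelial markers summed to at most 4.17. What part these shifts had in the results below was not tested. In RNA from a whole dish, fewer cells that express a gene and less of its RNA per cell cannot be told apart.

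The sequence before the annotated starts of the members that stood highest under E2 relative to DMSO, *Sgk1* and *Wnk2*, is shown for orientation. FPKM per gene do not tell which annotated start was used in these cells. The RefSeq table for GRCm38.p6 (the mm10 assembly) held 15 promoter windows for 7 of the 10 members, each 250 bases before to 50 bases after a start, and 6 of them belong to *Sgk1*. Of the members, *Sgk3*, *Nedd4l* and *Scnn1a* had no window. For *Sgk1* the 250 bases before start 5 and start 6, counted along the chromosome, are given, both on the plus strand, at chr10:21993640-21993889 and chr10:21994416-21994665. For *Wnk2* the 250 bases at chr13:49148329-49148578 are given, read on the minus strand, and the RefSeq start used there lies upstream of the GENCODE start of the gene. Capitals mark a full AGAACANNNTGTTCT palindrome, the binding motif shared by the glucocorticoid, mineralocorticoid and progesterone receptors, or a TATAAA motif. Matches to single arms of a palindrome are left in lower case.
Sgk1 start 5: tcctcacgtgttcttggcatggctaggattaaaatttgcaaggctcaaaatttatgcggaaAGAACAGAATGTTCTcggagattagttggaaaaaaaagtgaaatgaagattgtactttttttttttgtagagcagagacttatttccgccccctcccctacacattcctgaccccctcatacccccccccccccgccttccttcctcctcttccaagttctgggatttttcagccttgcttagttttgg
Sgk1 start 6: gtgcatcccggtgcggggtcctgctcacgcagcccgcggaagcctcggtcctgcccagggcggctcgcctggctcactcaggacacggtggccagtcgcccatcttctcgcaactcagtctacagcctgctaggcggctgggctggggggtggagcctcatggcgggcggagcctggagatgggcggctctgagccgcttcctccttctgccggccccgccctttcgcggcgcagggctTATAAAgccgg
Wnk2 start: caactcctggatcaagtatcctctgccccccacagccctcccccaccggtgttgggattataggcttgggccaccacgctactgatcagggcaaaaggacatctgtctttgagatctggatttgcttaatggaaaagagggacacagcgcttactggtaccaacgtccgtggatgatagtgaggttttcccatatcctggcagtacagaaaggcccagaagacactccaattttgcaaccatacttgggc

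Every window was searched on both strands. The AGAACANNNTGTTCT palindrome occurred in 3 of 32851 promoter windows (0.00913%), those of *Acnat2*, *Gm35041* and *Sgk1*. In *Sgk1* it reads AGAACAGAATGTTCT, lies at chr10:21993701-21993715, and begins 189 bases before start 5 and 965 bases before start 6. The estrogen response element palindrome, GGTCANNNTGACC, occurred in 23 windows (0.07%) and in none of the 15 windows of the members. Its single arm GGTCA, which is also part of the full element, was present in 40.5% of all windows and in the first 5 of the *Sgk1* windows. The arm TGTTCT, which overlaps the palindrome at start 5, was present in 19.0% of all windows. TATAAA, present in 13.6% of windows, was found 28 bases before *Sgk1* start 4 and 11 bases before start 6. The *Wnk2* and *Wnk4* windows held none of these 5 motifs. These matches describe letters in a short window and say nothing on whether a receptor was bound there.

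**Figure D1:**
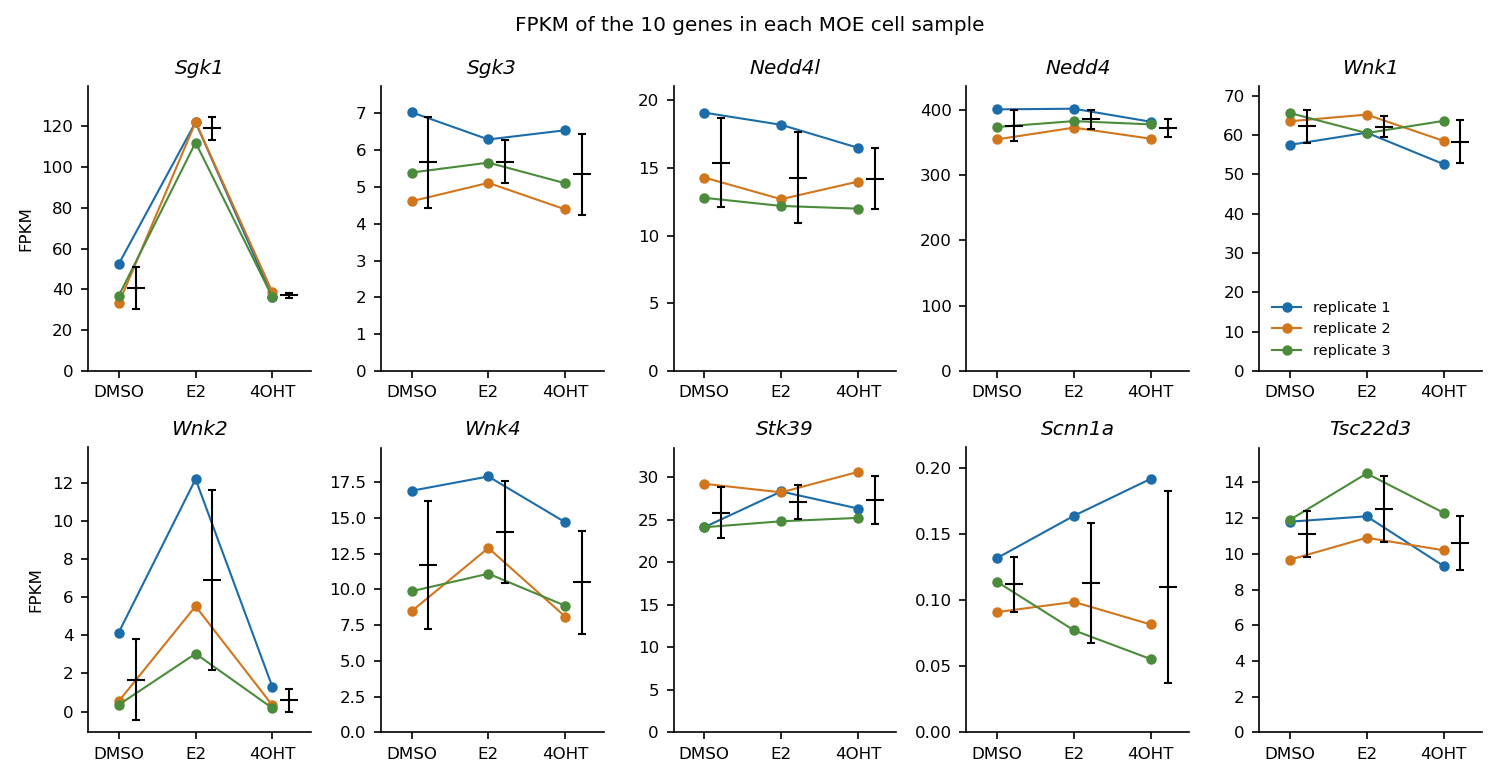
FPKM (vertical axis, linear, a scale of its own in each panel) of the 10 genes in DMSO, E2 and 4OHT. Points are samples, coloured lines join samples with the same replicate number, and black marks with bars are the mean ± SD of 3 samples. The 3 *Sgk1* values in E2 (112 to 122) lie above the other 6 (33.1 to 52.4), and for *Wnk2* each coloured line peaks in E2.

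Among the SGK kinases, *Sgk1* stood higher with E2 and *Sgk3* did not. *Sgk1* lies on mm10 chromosome 10 at 21882184 to 21999903, plus strand. It measured 52.4, 33.1 and 36.8 FPKM in DMSO, 122, 122 and 112 FPKM in E2, and 36.2, 38.6 and 36.2 FPKM in 4OHT, in the order of the replicate numbers. All E2 samples lay above all others, and the 4OHT samples lay within the range of the DMSO samples. The means were 40.8 ± 10.2 FPKM in DMSO, 119 ± 5.67 FPKM in E2 and 37.0 ± 1.37 FPKM in 4OHT (SD, n = 3). Within the replicate numbers, E2 over DMSO was 2.33, 3.69 and 3.05 times, so the smallest ratio came from the pair whose DMSO sample was highest. E2 over 4OHT was 3.37, 3.17 and 3.10 times, and 4OHT over DMSO 0.692, 1.17 and 0.983 times. On the log2(FPKM + 1) scale of the fit, *Sgk1* differed by 1.55 between E2 and DMSO, by -0.11 between 4OHT and DMSO, and by 1.66 between E2 and 4OHT. With 1 sample left out at a time and no block, the first of these values ranged from 1.41 to 1.74. The last ranged from 1.64 to 1.70. The standard error of the first was 0.15 without the replicate number as a block and 0.14 with it.

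*Sgk3*, a kinase of the same family that carries a lipid-binding domain and acts at endosomes, was measured at 7.03, 4.61 and 5.39 FPKM in DMSO, 6.29, 5.11 and 5.66 FPKM in E2, and 6.54, 4.39 and 5.10 FPKM in 4OHT. The 3 conditions overlapped, and replicate 1 was the highest sample in each. The difference between E2 and DMSO was 0.02 on the log2 scale (SE 0.16 without the block, 0.06 with it). Its sign turned under other scalings of the samples (-0.02 and -0.01). *Sgk1* made up 87.2% to 88.2% of the summed FPKM of the pair in DMSO, 95.1% to 96.0% in E2 and 84.7% to 89.8% in 4OHT. *Sgk2*, the remaining gene of the family, was at or below 0.0680 FPKM in all 9 samples and was not tested.

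**Figure D2:**
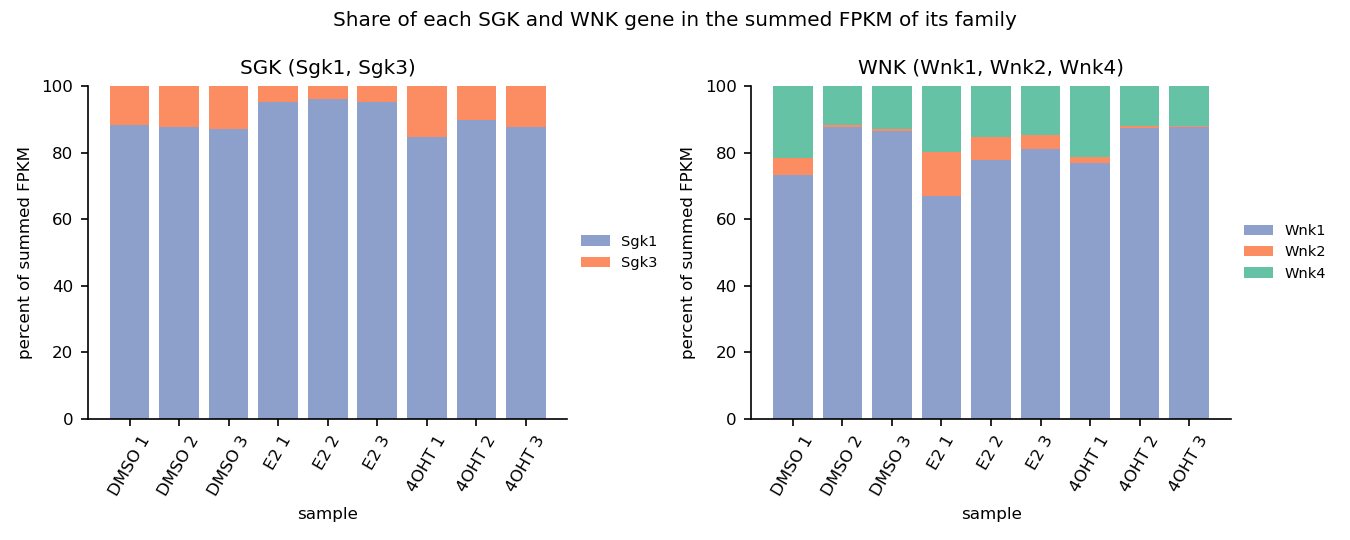
Share of each gene (vertical axis, percent) in the summed FPKM of the SGK pair (left) and of the 3 WNK genes (right), for each of the 9 samples. *Sgk1* holds at least 95.1% of the pair in E2, and the *Wnk2* band is widest in E2 replicate 1, at 13.4%.

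The RNA of *Nedd4l*, which encodes the ligase that SGK kinases phosphorylate, and that of its close relative *Nedd4* showed no such step. *Nedd4l* was measured at 19.1, 14.3 and 12.8 FPKM in DMSO, 18.2, 12.7 and 12.2 FPKM in E2, and 16.5, 14.0 and 12.0 FPKM in 4OHT. It was lower in E2 than in DMSO in 3 of 3 replicate numbers, with the conditions overlapping. The average difference was -0.10 on the log2 scale (SE 0.19 without the block, 0.05 with it). With 1 sample left out and no block it ranged from -0.27 to 0.05. *Nedd4* was the most abundant member, at the 98.0th percentile of the tested rows by mean FPKM, with 401, 355 and 374 FPKM in DMSO, 402, 373 and 383 FPKM in E2, and 382, 356 and 378 FPKM in 4OHT. Its log2 difference between E2 and DMSO was 0.04 (SE 0.06 without the block, 0.03 with it). Set per length, the *Nedd4* level was the larger share of the pair throughout, between 95.5% and 96.9% of their summed FPKM.

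The WNK genes differed from one another. *Wnk1*, which encodes the widely expressed member of the family, was measured at 57.5, 63.5 and 65.6 FPKM in DMSO, 60.6, 65.2 and 60.5 FPKM in E2, and 52.6, 58.5 and 63.6 FPKM in 4OHT. The E2 values lay inside the DMSO range, and the log2 difference was 0.00 (SE 0.08 without the block, 0.05 with it).

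*Wnk2*, on mm10 chromosome 13 at 49036303 to 49148014, minus strand, encodes a kinase that acts on the same cotransporters. It was measured at 4.15, 0.542 and 0.356 FPKM in DMSO, 12.2, 5.53 and 3.04 FPKM in E2, and 1.29, 0.325 and 0.179 FPKM in 4OHT. E2 was the highest condition in each replicate number and 4OHT the lowest, yet the DMSO sample of replicate 1 lay above the E2 sample of replicate 3, so these conditions overlap, whereas E2 and 4OHT do not. The ratio of E2 to DMSO was 2.93, 10.2 and 8.52 within the replicate numbers, that of E2 to 4OHT 9.42, 17.0 and 17.0, and that of 4OHT to DMSO 0.312, 0.600 and 0.501. The means were 1.68 ± 2.14 FPKM in DMSO, 6.92 ± 4.73 FPKM in E2 and 0.600 ± 0.606 FPKM in 4OHT (SD, n = 3). In DMSO and 4OHT the SD was as large as the mean, since replicate 1 was 9.25 times the mean of replicates 2 and 3 in DMSO, 2.84 times in E2 and 5.14 times in 4OHT. Only 73 of the 11339 tested rows (0.644%) were at least 2 times higher in replicate 1 in every condition.

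On the log2(FPKM + 1) scale, *Wnk2* differed by 1.67 between E2 and DMSO, by 2.20 between E2 and 4OHT and by -0.53 between 4OHT and DMSO. The standard error of each was 0.60 without the replicate number as a block and 0.21 with it. With a pseudocount of 0.1 in place of 1 the differences were 2.48, 3.45 and -0.97, because the added 1 exceeds most of the DMSO and 4OHT values. With nothing added, the log2 ratios of the mean FPKM were 2.04, 3.53 and -1.49. Samples were left out 1 at a time without the block, which leaves a replicate number incomplete. This gave 1.22 to 2.28 for E2 against DMSO, 1.75 to 2.60 for E2 against 4OHT, and -0.88 to 0.08 for 4OHT against DMSO. A fit that lacked replicate 1 in 1 condition still held its high values in the others. The lowest *Wnk2* value, in 4OHT replicate 3, corresponds to about 49 reads by an approximate conversion from FPKM.

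*Wnk4*, known from the kidney as a regulator of the thiazide-sensitive cotransporter, was measured at 16.9, 8.47 and 9.87 FPKM in DMSO, 17.9, 12.9 and 11.1 FPKM in E2, and 14.7, 8.10 and 8.86 FPKM in 4OHT. The conditions overlapped. E2 was above both other conditions in 3 of 3 replicate numbers, by 1.06, 1.53 and 1.12 times over DMSO and by 1.22, 1.60 and 1.25 times over 4OHT. Replicate 1 was again the highest sample of each condition, by 1.84, 1.49 and 1.73 times over the mean of the other samples in DMSO, E2 and 4OHT. The log2 difference was 0.26 between E2 and DMSO and 0.39 between E2 and 4OHT (SE 0.30 without the block, 0.09 with it). Together, *Wnk1*, *Wnk2* and *Wnk4* summed to 72.5 to 78.5 FPKM in DMSO, 74.6 to 90.7 FPKM in E2 and 67.0 to 72.6 FPKM in 4OHT, with *Wnk1* at 66.8% or more of the sum in every sample.

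*Stk39*, which encodes SPAK, the kinase below the WNK proteins, was measured at 24.1, 29.2 and 24.1 FPKM in DMSO, 28.3, 28.2 and 24.8 FPKM in E2, and 26.3, 30.6 and 25.2 FPKM in 4OHT. Its log2 differences were 0.07 for E2 against DMSO and 0.08 for 4OHT against DMSO (SE 0.10 without the block, 0.05 with it). That for E2 against 4OHT was -0.01, a value whose sign turned under other scalings (0.01 and 0.03). *Scnn1a*, the alpha subunit of the epithelial sodium channel, was near the floor of these libraries: 0.132, 0.0911 and 0.114 FPKM in DMSO, 0.164, 0.0988 and 0.0773 FPKM in E2, and 0.192, 0.0817 and 0.0555 FPKM in 4OHT. Its lowest value stands for about 8 reads, and it was the only member below the filter, which asked for 3 or more samples at an FPKM of 1 or above. *Wnk2*, the member just above that filter, passed with 1 DMSO sample, all 3 E2 samples and 1 4OHT sample. *Tsc22d3*, which encodes the glucocorticoid-induced leucine zipper protein and is widely used as a readout of the glucocorticoid receptor, was measured at 11.8, 9.67 and 11.9 FPKM in DMSO, 12.1, 10.9 and 14.5 FPKM in E2, and 9.32, 10.2 and 12.3 FPKM in 4OHT. E2 exceeded DMSO in 3 of 3 replicate numbers, by 1.03, 1.12 and 1.22 times, with the conditions overlapping. The log2 difference was 0.15 (SE 0.13 without the block, 0.08 with it).

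Ordered by mean FPKM over the 9 samples, the members ran *Nedd4* (378), *Sgk1* (65.5), *Wnk1* (60.8), *Stk39* (26.8), *Nedd4l* (14.6), *Wnk4* (12.1), *Tsc22d3* (11.4), *Sgk3* (5.57), *Wnk2* (3.07) and *Scnn1a* (0.112). By condition means, *Sgk1* and *Wnk1* stood in the reverse order in DMSO and 4OHT, *Sgk3* and *Wnk2* in E2, and *Wnk4* and *Tsc22d3* in 4OHT. In DMSO the samples of *Nedd4l* and *Wnk4* overlapped, as did those of *Wnk4* and *Tsc22d3*, whereas all *Nedd4l* samples lay above all *Tsc22d3* samples. No member was listed at an FPKM of 0 in any sample.

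**Figure D3:**
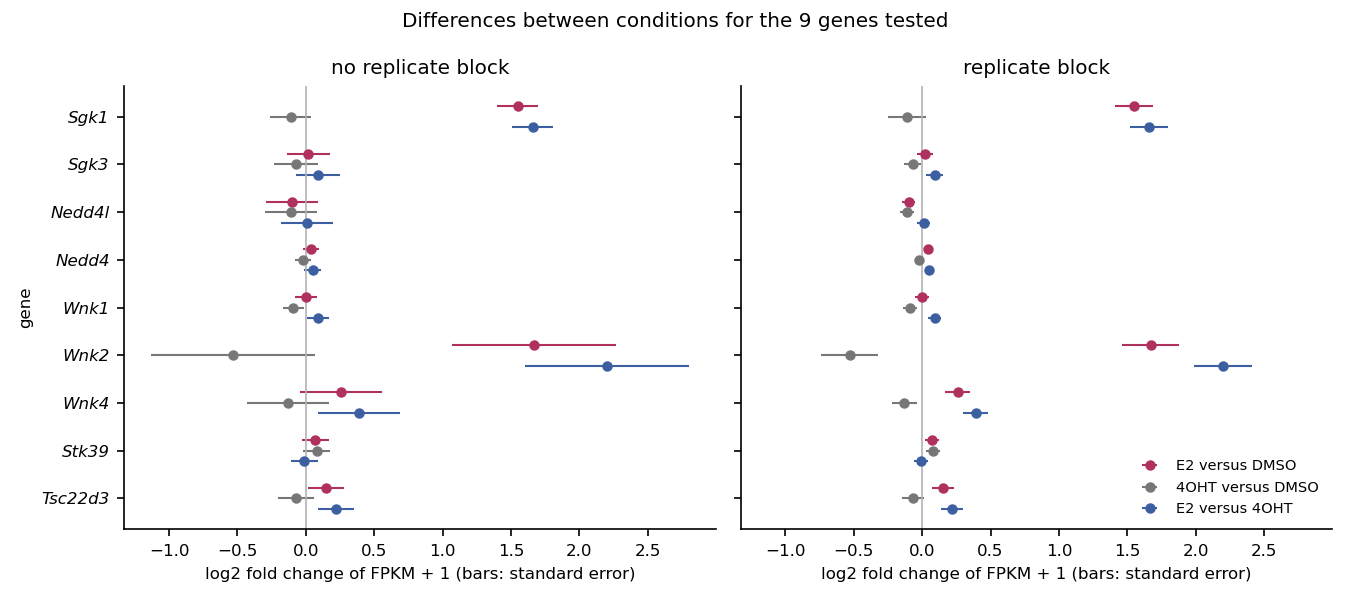
Log2 fold change of FPKM + 1 (horizontal axis, bars are standard errors) for the 9 genes tested in the 3 comparisons, without (left) and with (right) the replicate number as a block. Points for *Sgk1* and *Wnk2* lie at 1.55 to 2.20 in both comparisons that involve E2, and the other 7 genes lie between -0.13 and 0.39.

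Counts of members past the threshold are given for completeness, since the members were selected on these comparisons, and nothing is read from them. Between E2 and DMSO, limma called 1 of 9 members (*Sgk1*) without the block, beside 0.512% of all 11339 tested rows, and 2 of 9 (*Sgk1* and *Wnk2*) with it, beside 15.0%. Leaving out E2 replicate 2, DMSO replicate 3, or all samples of replicate number 2 or 3 ended the *Sgk1* call in the fit without the block. With the block, leaving out number 3 ended both calls and leaving out number 2 that of *Wnk2*. Between E2 and 4OHT, 1 of 9 (*Sgk1*) was called without the block, beside 0.159% of rows, and 3 of 9 (*Sgk1*, *Wnk2* and *Wnk4*) with it, beside 16.2%. Here the *Sgk1* call without the block was lost when number 2 or 3 or any 1 of the 4OHT samples was left out, or without E2 replicate 2 or 3, and with the block leaving out number 3 ended all 3 calls, number 2 those of *Wnk2* and *Wnk4*, and number 1 that of *Wnk4*. Between 4OHT and DMSO, 0 of 9 members were called by limma in either fit, beside 0% of all rows in both, while 313 rows without the block and 1480 with it had an unadjusted p under 0.05.

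Direction within replicate numbers was also counted. Between E2 and DMSO, 5 of the 9 tested members were higher and 1 lower in all 3 numbers, beside 52.4% of all tested rows that kept 1 direction (3186 higher, 2750 lower). Between 4OHT and DMSO, 1 was higher and 5 were lower, beside 45.9% (3427 higher, 1772 lower). Between E2 and 4OHT, 5 were higher and 0 lower, beside 55.2% (2756 higher, 3502 lower). The median log2 difference of the 9 members was 0.07, -0.09 and 0.09 in these comparisons, and that of all tested rows 0.00, 0.03 and -0.01. The comparisons share samples, so their values are not independent of one another.

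The other genes of these pathways were drawn from 5 lists of 90 symbols chosen by role, with the earlier *Sgk1* result known. Of the 88 symbols with a row, 63 were tested. Limma called 2 of 63 genes higher and 0 lower in E2 than in DMSO without the block, and 20 higher and 1 lower with it, beside the 0.512% and 15.0% of all rows. Over all rows, the calls with the block were 1177 higher and 525 lower. Without number 1, 2 or 3 the calls with the block came to 6, 4 and 0 of 63. Calls over all 11339 tested rows also fell, from 1702 to 542, 305 and 155. Between E2 and 4OHT, 1 of 63 was higher without the block, beside 0.159% of all rows, and 15 were higher and 5 lower with it, beside 16.2% (978 higher, 862 lower). Between 4OHT and DMSO, 0 of 63 passed by limma in either fit.

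**Figure D4:**
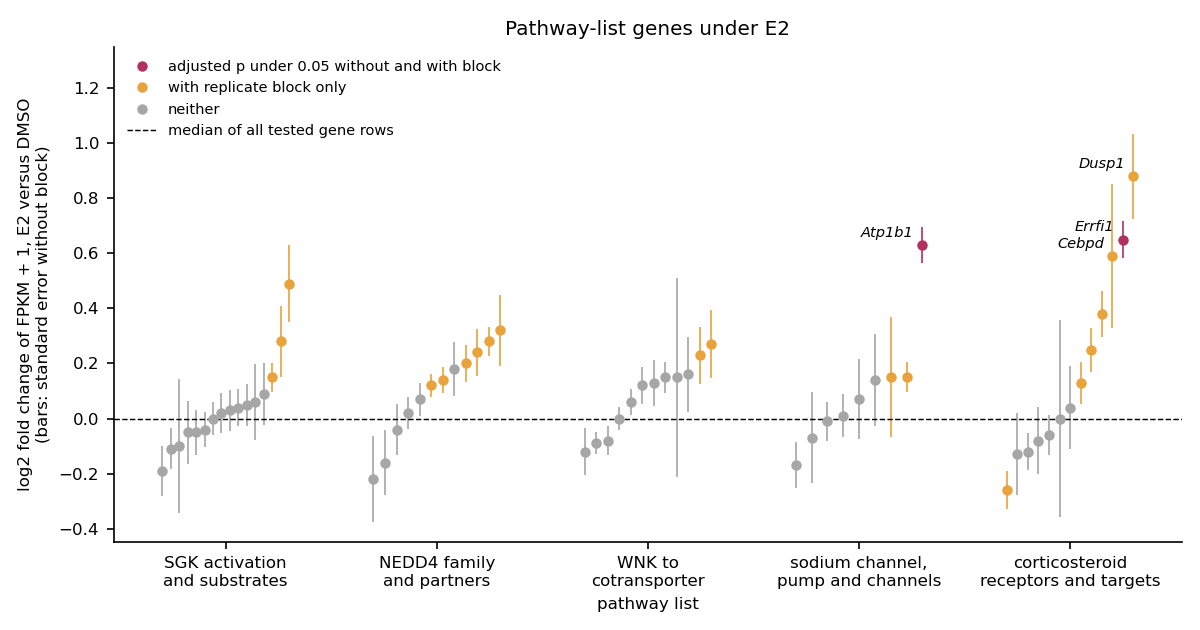
Log2 fold change of FPKM + 1 between E2 and DMSO (vertical axis, bars are standard errors without the block) for the tested genes of the 5 pathway lists, ordered by value within each list, without rows that hold an exact 0. The dashed line is the median of all tested rows at 0.00, and *Atp1b1* and *Errfi1* are the genes called without and with the block.

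In the list of SGK activators and substrates, 16 of 18 genes were tested and their median log2 difference between E2 and DMSO was 0.02. With the block 3 rose and 0 fell, a share of the list near the 15.0% of all rows called, and without it 0 passed. *Pdpk1*, the kinase that phosphorylates the activation loop of SGK and AKT, went from 18.6 ± 0.859 to 20.6 ± 0.778 FPKM (SD, n = 3, limma adjusted p = 0.370 without and 0.0303 with the block). *Gsk3b*, a kinase that AKT and SGK inhibit, went from 33.7 ± 5.35 to 41.1 ± 4.58 FPKM (limma adjusted p = 0.484 and 0.0176). *Slc9a3r2*, a scaffold that links SGK1 to the sodium proton exchanger, was lower in E2 than in 4OHT with the block (log2 difference -0.29, limma adjusted p = 0.349 without and 0.0284 with it). *Akt1*, the most abundant gene of the list at 155 ± 18.0 FPKM in DMSO and 149 ± 9.96 FPKM in E2, passed in neither fit.

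In the list of NEDD4 relatives and partners, 12 of 14 genes were tested, with a median log2 difference of 0.13. With the block 6 rose and 0 fell between DMSO and E2, beside 15.0% of all rows called, and without it 0 passed. *Itch*, a ligase of the NEDD4 family, was measured at 22.0, 16.7 and 18.7 FPKM in DMSO and at 28.0, 21.4 and 23.0 FPKM in E2 (log2 difference 0.32, limma adjusted p = 0.432 without and 0.00536 with the block). The conditions overlapped, and E2 was higher in each replicate number. The ligases *Wwp1* and *Wwp2* followed with log2 differences of 0.20 and 0.14 (limma adjusted p = 0.0200 and 0.0440 with the block), and *Ndfip2*, an adaptor that recruits these ligases, with 0.24 (0.0211). *Ywhaz*, a 14-3-3 protein of the family that binds phosphorylated NEDD4L, was measured at 311, 312 and 289 FPKM in DMSO, 380, 364 and 362 FPKM in E2 and 312, 329 and 304 FPKM in 4OHT, with no overlap between E2 and the others (E2 against DMSO, 0.28, limma adjusted p = 0.0904 without and 0.00629 with the block). *Ywhab* rose by 0.12 with the block (0.0364), while *Ywhae*, the most abundant gene of the list, had a log2 difference of 0.02. *Smurf1* and *Usp10* were lower in E2 than in 4OHT with the block (log2 differences -0.12 and -0.22, limma adjusted p = 0.0475 and 0.0244).

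In the WNK cascade, 12 of 20 symbols were tested, with a median log2 difference of 0.12. *Wnk3* and *Slc12a4* had no row of their own and were not analysed here. With the block 2 rose and 0 fell between DMSO and E2, a share of the list near that of all rows. *Cab39*, which encodes the scaffold MO25 that boosts SPAK and OSR1, was measured at 48.4, 40.4 and 42.4 FPKM in DMSO and 58.5, 46.6 and 49.8 FPKM in E2 (0.23, limma adjusted p = 0.477 without and 0.00758 with the block). *Klhl2*, an adaptor of the ubiquitin ligase that degrades WNK kinases, went from 32.7 ± 4.54 to 39.7 ± 4.46 FPKM (0.27, limma adjusted p = 0.484 and 0.00784). *Slc12a2*, the sodium potassium chloride cotransporter NKCC1, was measured at 33.8, 25.3 and 24.7 FPKM in DMSO, 34.9, 29.7 and 28.5 FPKM in E2 and 30.6, 25.2 and 25.9 FPKM in 4OHT, and passed in the blocked fit between 4OHT and E2 (0.18, limma adjusted p = 0.0481) but not between DMSO and E2 (0.0737). The kidney cotransporters *Slc12a1* and *Slc12a3* were at or below 0.0396 FPKM in every sample and *Klhl3* at or below 0.0593 FPKM. They were named after their values were seen.

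Of the sodium channel, its proteases, the sodium pump and the anion channels, 10 of 21 genes were tested, with a median log2 difference of 0.11. *Atp1b1*, the beta 1 subunit of the sodium pump, was measured at 34.1, 33.9 and 33.6 FPKM in DMSO, 58.0, 50.0 and 51.1 FPKM in E2, and 32.9, 35.7 and 32.7 FPKM in 4OHT. The E2 samples lay above all others. *Atp1b1* rose by 0.63 (SE 0.07 without the block) against DMSO (limma adjusted p = 0.0122 without and 0.00295 with the block) and by 0.63 against 4OHT (0.0248 and 0.00408). Its call against DMSO without the block was lost when DMSO replicate 2 or DMSO replicate 3 was left out (adjusted p = 0.0511 and 0.0584 by limma), and its call against 4OHT when any 4OHT sample, E2 replicate 2 or 3, or DMSO replicate 3 was left out (0.0670 to 0.115). *Atp1b3* rose by 0.15 with the block only (limma adjusted p = 0.377 without and 0.0380 with it), as did the chloride channel gene *Ano1* (0.15, 0.820 and 0.0412).

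The beta and gamma subunits of the sodium channel, named here after their values were seen, lay below the filter like *Scnn1a*. *Scnn1b* was measured at 0.252, 0.00926 and 0.0107 FPKM in DMSO, 0.574, 0.444 and 0.239 FPKM in E2, and 0.414, 0.138 and 0.0833 FPKM in 4OHT, and *Scnn1g* at no more than 0.0789 FPKM in any sample.

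Of the corticosteroid receptors, enzymes and common glucocorticoid targets, 13 of 17 were tested, with a median log2 difference of 0.04. With the block 6 rose and 1 fell between DMSO and E2, beside 15.0% of all rows called. Without it 1 rose, beside 0.512%. *Nr3c1*, the glucocorticoid receptor, was measured at 11.6, 9.82 and 9.60 FPKM in DMSO, 14.8, 13.0 and 13.3 FPKM in E2 and 11.0, 10.1 and 10.1 FPKM in 4OHT. All E2 samples lay above all others (0.38 against DMSO, limma adjusted p = 0.138 without and 0.00295 with the block). *Nr3c2*, the mineralocorticoid receptor, was at 0.571 to 0.763 FPKM in all 9 samples, below the filter.

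*Errfi1*, a feedback inhibitor of the EGF receptor, was measured at 63.3, 53.8 and 60.1 FPKM in DMSO, 91.8, 90.9 and 96.7 FPKM in E2, and 64.9, 64.9 and 69.9 FPKM in 4OHT. It rose by 0.65 (SE 0.07 without the block) against DMSO (limma adjusted p = 0.0122 without and 0.00158 with the block). The call without the block was lost when any of the 3 E2 samples or DMSO replicate 3 was left out (adjusted p from 0.0517 to 0.0585). *Dusp1*, a phosphatase of MAP kinases, was measured at 41.3, 26.2 and 33.9 FPKM in DMSO, 63.7, 57.9 and 64.2 FPKM in E2 and 38.6, 30.8 and 34.4 FPKM in 4OHT, with no overlap (0.88 against DMSO, limma adjusted p = 0.0708 without and 0.00343 with the block). *Cebpd*, a transcription factor, rose by 0.59 with the block (0.475 without and 0.0121 with it by limma). *Anxa1* and *Zfp36* rose by 0.13 and 0.25 with the block (limma adjusted p = 0.0361 and 0.0303). *Ddit4*, an inhibitor of mTOR signalling, fell from 30.7 ± 2.54 to 25.4 ± 0.579 FPKM with the block (-0.26, limma adjusted p = 0.233 without and 0.0321 with it). *Fkbp4*, a cochaperone of steroid receptors, was lower in E2 than in 4OHT with the block (-0.19, limma adjusted p = 0.376 without and 0.0428 with it). *Fkbp5* and *Per1*, which glucocorticoids induce in many tissues, were named after their values were seen. *Fkbp5* was measured at 3.02, 2.79 and 2.41 FPKM in DMSO and 3.11, 2.29 and 2.25 FPKM in E2, and *Per1* at 3.51, 3.15 and 3.11 FPKM in DMSO and 3.14, 3.33 and 2.79 FPKM in E2. Neither was called.

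The tested rows whose log2(FPKM + 1) followed *Sgk1* most closely over the 9 samples were *Ceacam2* (Pearson r = 0.985), *Arap1* (0.984), *Npr2* (0.983), *Ceacam1* (0.982) and *Trpv4* (0.982). These correlations are a description of 9 samples that share 3 conditions, and they mostly record the step between E2 and the rest. *Npr2*, the receptor for C-type natriuretic peptide, was measured at 49.2, 37.1 and 41.4 FPKM in DMSO, 76.1, 77.0 and 72.0 FPKM in E2, and 35.5, 34.2 and 37.4 FPKM in 4OHT. *Trpv4*, a calcium channel opened by osmotic and mechanical stimuli, was measured at 99.2, 82.3 and 87.7 FPKM in DMSO, 129, 118 and 116 FPKM in E2, and 89.6, 88.1 and 86.7 FPKM in 4OHT. In both genes the E2 samples lay above all others, and within DMSO replicate 1 was the highest, as for *Sgk1*. *Arap1* went from 6.80 ± 0.164 FPKM in DMSO to 8.42 ± 0.264 FPKM in E2 (SD, n = 3). *Ceacam1* (2.01 ± 0.956 to 8.53 ± 1.44 FPKM) and *Ceacam2* (0.598 ± 0.257 to 2.45 ± 0.272 FPKM) are paralogs whose reads may be shared between them.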

How the data were processed

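RNA from FVB MOE cells was sequenced as directional poly(A) libraries of single-end reads in 9 samples, 3 per condition, and the condition and replicate number were read from the labels. After trimming, the authors mapped reads to mm10 with TopHat2 (2.0.8b), took known genes from a UCSC annotation and computed the deposited FPKM with Cufflinks and cuffdiff (2.1.1). FPKM holds no read counts, and whether a scaling between libraries was added is not given in the sources used here. Reads per gene were therefore approximated from FPKM, the longest annotated transcript and the smallest FPKM step of each sample, so depth is known roughly only.

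Rows that reached an FPKM of 1 in 3 or more samples (11339 of 23332) were tested on log2(FPKM + 1) with limma (3.58.1, R 4.3.3) with a trend, with all 9 samples in 1 fit, Benjamini-Hochberg adjustment over all rows and a threshold of 0.05. A pseudocount of 1 shrinks the changes of low rows. The same fit was run with the replicate number as a block. Deviations of same-numbered samples from their condition means correlated at 0.523 to 0.828 in all 9 pairs of samples over the 11094 rows without an exact 0, so the numbers pair the samples. Over all tested rows, where exact zeros weigh heavily, the correlations were 0.0527 to 0.293. The code of the fits was tested on simulated data without exact zeros, which does not show that these data meet its assumptions. Exact zeros were kept as values and, as an alternative, taken as missing.

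The members and the pathway lists were chosen with earlier results of these data known, and no p is given for members. Named besides the members were list genes past the threshold in any comparison in either fit, the most abundant gene of each list, and the 5 rows most correlated with *Sgk1*. A few list genes that this rule names are counted but not reported here. Gene positions came from GENCODE and promoter windows from RefSeq. Other alternatives changed the pseudocount, the filter, the scaling and the samples in the fit.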

Additional observations from a re-analysis of the deposited data

How the results depend on the processing

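The number of rows called moved with most settings, and the cause was not tested beyond what each setting does to the rows or samples tested. Between E2 and DMSO, 58 rows were called. The count was 1702 with the replicate block, 2111 with the block and exact zeros taken as missing, 32 with no filter, 36 with upper-quartile scaling, 33 with equal FPKM totals and 8 with only the 6 samples of the contrast. Leaving out 1 sample gave 8 to 50 rows, leaving out 1 replicate number 6 to 125, and doing so with the replicate block, an alternative chosen after seeing the data, 542, 305 and 155 (without number 1, 2 and 3). Between E2 and 4OHT, 18 rows were called, against 1840 with the block, 37 with exact zeros as missing, 2467 with both, 10 with a pseudocount of 0.1, 9 with no filter and 7 with only 6 samples. The ranges were 0 to 23, 4 to 72 and, with the block, 234, 167 and 85. Between 4OHT and DMSO the 0 rows became 6 with exact zeros as missing and the block and 3 with 6 samples, and the ranges were 0 to 2, 4 to 7 and, with the block, 4, 5 and 7.

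Members called between E2 and DMSO numbered 1 without the block, 2 with the block, also with exact zeros as missing, and 0 with only the 6 samples. Leaving out 1 sample or 1 number gave 0 to 1, and 0 to 2 with the block. Between E2 and 4OHT they numbered 1, against 3 with the block, also with exact zeros as missing, with ranges of 0 to 1 and, with the block, 0 to 2. Of the 63 list genes tested, 2 were called between E2 and DMSO, 21 with the block, 25 with exact zeros as missing and the block and 0 with 6 samples, with ranges of 0 to 3 and, with the block, 0 to 6. Between E2 and 4OHT, 1 was called, 20 with the block, 2 with exact zeros as missing, 23 with both, 2 with upper-quartile scaling and 0 with 6 samples, with ranges of 0 to 2 (1 sample), 0 to 1 (1 number) and, with the block, 0 to 4. Among log2 fold changes of the named list genes, 826 values kept their direction and their side of the threshold, 93 passed only under the alternative, and 24, all of *Atp1b1* or *Errfi1*, passed only in the reported fit. Those of the members, compared by size alone, moved by less than the replicate spread in 576 cases and further in 45. Approximate depth limits *Scnn1a* most, at about 8 reads in its lowest sample.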
